A study of Mus musculus with 5 samples.

Results

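Bcl6, Bcl6b, Prdm1, Bach1, Bach2, Sim1 and Sim2 encode sequence-specific transcription factors, and their transcripts were followed in SV40 T antigen immortalized mouse embryonic fibroblasts. The 7 genes were taken by symbol from the 23337 genes of the deposited table, and 6 of them passed the filter on low values. They were chosen from the difference between the labelled groups: Bcl6b, Prdm1 and Sim2 were picked because little of their signal was left in the knockout-labelled libraries, and Bcl6, Bach1, Bach2 and Sim1 were added as their relatives. The values of Bcl6b, Prdm1 and Sim2 are therefore given as a description, with no test. No cutoff was part of that choice, so there are no members just inside or outside one.

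Messenger RNA of 3 libraries labelled wild type (WT) and 2 labelled SIRT3 -/- (KO) was sequenced, all from strain 129Sv fibroblast lines kept under normal conditions. Each line of both genotypes carried the T antigen, a viral protein that inactivates p53 and the retinoblastoma protein. SIRT3 is a protein deacetylase of mitochondria, and the study's title concerns a nucleotide synthesis weakness of cells that lack it. The labels do not say how many lines or clones stand behind each genotype, nor how the allele was made, so a difference between genotypes and a difference between lines cannot be told apart.

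Libraries held between 33473103 and 41758681 reads. Sirt3 itself was present in all of them, at 118.4 to 169.7 normalized read counts in WT and 200.4 and 216.8 in KO (limma, adjusted p = 0.0044, and 0.0769 without KO replicate 2), which goes against the label if the allele gives no transcript. Totals per gene do not show whether part of a transcript is missing, so every direction here is between libraries as labelled. Of 13062 genes tested, 65.3% were called different, 32.6% higher and 32.6% lower in KO. A normalized read count is the number of reads of a gene divided by a size factor for the library, and a call is a Benjamini-Hochberg adjusted p under 0.05 in limma. The replicates are not stated to be separate cultures. The p-values therefore set each group difference only against the spread among these libraries, and that spread may be technical.

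Most of these proteins are repressors that bind DNA and recruit corepressors. BCL6 and BCL6B carry a BTB domain and zinc fingers, and BCL6 is best known for holding germinal centre B cells in their state. BLIMP1, the product of Prdm1, has a PR domain and zinc fingers and drives the opposite step, to plasma cells. BCL6 and BLIMP1 repress each other's genes in B cells, and BACH2, a BTB and basic leucine zipper factor that pairs with small MAF proteins, also represses Prdm1 there. BACH1 pairs with the same small MAF proteins and holds down haem oxygenase and other genes of haem, iron and oxidant handling. SIM1 and SIM2 are bHLH-PAS proteins that pair with ARNT or ARNT2 and act mainly in the developing nervous system. In embryos Prdm1 is also needed for germ cell and limb development.

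Bcl6b (chromosome 11, 70224127 to 70229798, minus strand, GRCm38) was the most abundant of the 7 genes per length in WT and was the most reduced of them in KO. WT replicates 1 to 3 held 3909, 4005 and 3914 normalized read counts of Bcl6b, against 82.6 and 72.3 for KO replicates 1 and 2. The groups were far apart, and the 3 WT values lay within a narrow band. WT averaged 3943 ± 54.1 (SD, n = 3) and KO 77.4 ± 7.29 (SD, n = 2), so that KO held 1.96% of the WT level, a log2 fold change of -5.65. The remaining signal rested on 75 and 65 reads across KO replicates 1 and 2, and the exact Poisson 95% intervals, 65.0 to 103.5 and 55.8 to 92.1 normalized read counts, cover counting error only. Among the 13062 log2 fold changes, counted from the lowest, Bcl6b ranked 11.

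Bcl6 (chromosome 16, 23965050 to 23988866, minus strand), the founding member of this pair, was lower in KO as well, but by much less. WT replicates 1 to 3 held 1251, 1224 and 1257 normalized read counts of Bcl6, against 692 and 673 for KO replicates 1 and 2. The groups did not overlap. WT averaged 1244 ± 17.8 (SD, n = 3) and KO 682 ± 13.3 (SD, n = 2), and Bcl6 fell by 0.87 ± 0.061 on the log2(normalized read count + 1) scale (SE; limma, adjusted p = 5.0e-11).

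The balance of the pair turned over between the groups. Within each library, the RPKM of Bcl6b was 3.00, 3.14 and 2.99 times that of Bcl6 across WT replicates 1 to 3. In KO replicates 1 and 2 the RPKM of Bcl6 was instead 8.73 and 9.71 times that of Bcl6b. The summed RPKM of both genes was between 41.2 and 41.7 in WT and 6.37 and 6.05 in KO. Bcl6b was picked for its difference between the groups, which enters the ratio and the sum, so both are description only.

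Prdm1 (chromosome 10, 44437174 to 44528558, minus strand) was a low gene in WT and lower still in KO. WT replicates 1 to 3 held 281, 273 and 297 normalized read counts of Prdm1, against 37.4 and 25.6 for KO replicates 1 and 2. No KO value came near the WT range. WT averaged 283.7 ± 12.2 (SD, n = 3) and KO 31.5 ± 8.39 (SD, n = 2), which is a log2 fold change of -3.15, and KO kept 11.1% of the WT level. Prdm1 was thus reduced less completely than Bcl6b or Sim2. The KO values came from 34 and 23 reads, with exact Poisson 95% intervals of 25.9 to 52.3 and 16.2 to 38.4 normalized read counts that overlap each other. Its rank from the lowest log2 fold change was 111.

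Bach1 (chromosome 16, 87698954 to 87733346, plus strand) was among the better expressed members in both groups. WT replicates 1 to 3 held 3993, 3966 and 3997 normalized read counts of Bach1, against 2473 and 2711 for KO replicates 1 and 2. KO was lower in both libraries, and the KO pair was spread more widely than the WT values. WT averaged 3986 ± 17.2 (SD, n = 3) and KO 2592 ± 168 (SD, n = 2), which is a log2 difference of -0.62 ± 0.045 (SE; limma, adjusted p = 8.8e-11).

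Bach2 (chromosome 4, 32238413 to 32586109, plus strand) was the only one of the 6 tested members that was higher in KO. WT replicates 1 to 3 held 514, 437 and 440 normalized read counts of Bach2, against 959 and 1075 for KO replicates 1 and 2. WT replicate 1 lay above the other WT libraries, and both KO libraries lay above all of WT. WT averaged 463.7 ± 43.2 (SD, n = 3) and KO 1017 ± 82.1 (SD, n = 2), which is a 2.19-fold difference and a log2 difference of 1.13 ± 0.085 (SE; limma, adjusted p = 1.4e-10). The antisense gene Bach2os shares 537 bp with its exons, 6.04% of their length, and whether counting used strand is not given in the sources used here, so reads in that stretch cannot be assigned to one of them.

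With 1 relative falling and the other rising, the BACH pair moved closer together. The RPKM of Bach1 was 11.3, 13.2 and 13.2 times that of Bach2 across WT replicates 1 to 3, and 3.74 and 3.65 times across KO replicates 1 and 2. Prdm1 and Bach2 were at like RPKM in WT, at a ratio of Prdm1 to Bach2 of 0.904, 1.03 and 1.11 in replicates 1, 2 and 3. In KO replicates 1 and 2 the RPKM of Bach2 was 15.5 and 25.5 times that of Prdm1. The difference between the groups for which Prdm1 was picked enters this ratio.

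Sim2 (chromosome 16, 94085104 to 94127032, plus strand) was clearly expressed in WT fibroblasts. WT replicates 1 to 3 held 2180, 2138 and 2248 normalized read counts of Sim2, against 57.3 and 92.3 for KO replicates 1 and 2. The groups were far apart, while the 2 KO libraries differed from each other by more than those of any other tested member did in proportion to their mean. WT averaged 2189 ± 55.6 (SD, n = 3) and KO 74.8 ± 24.8 (SD, n = 2), which is a log2 fold change of -4.89, and KO kept 3.42% of the WT level. The KO values came from 52 and 83 reads, with exact Poisson 95% intervals of 42.8 to 75.1 and 73.5 to 114.4 normalized read counts. Sim2 ranked 23 from the lowest log2 fold change.

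Sim1 (chromosome 10, 50894698 to 50989156, plus strand), the other SIM gene, was not expressed at a level these libraries could measure. WT replicate 1 held 1 read and the other 4 libraries held 0. At 0 reads, its exact Poisson 95% upper limits were 3.65 and 3.41 normalized read counts in WT replicates 2 and 3. For KO replicates 1 and 2, Sim1 had upper limits of 4.06 and 4.10. It was not tested, and no fold change is given. The SIM signal of these cells therefore came from Sim2 in both groups.

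**Figure D1:**
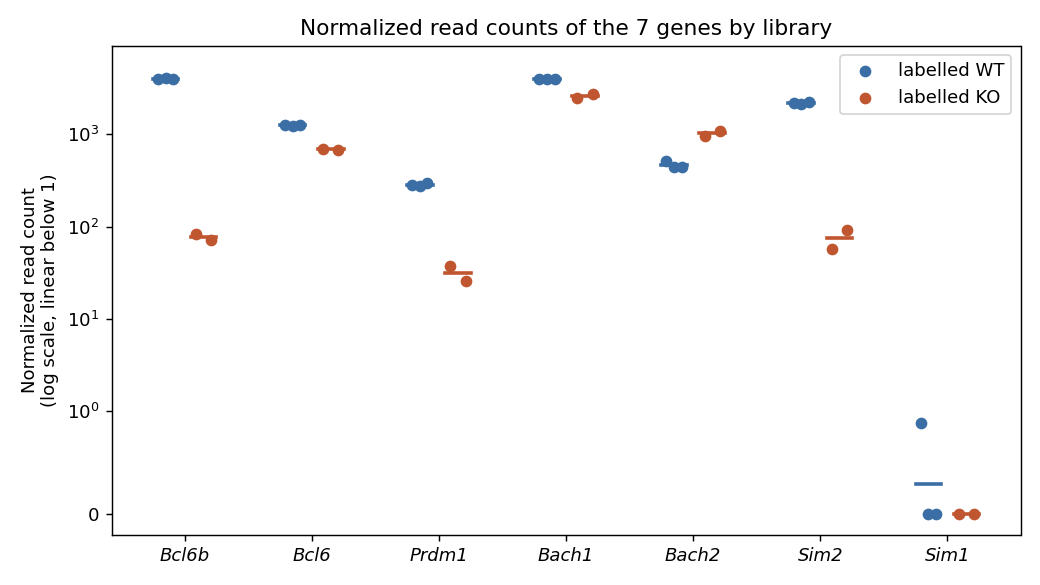
Normalized read counts of the 7 genes in each library, on a log axis that is linear below 1, with WT-labelled libraries in blue (n = 3), KO-labelled libraries in orange (n = 2) and a bar at each group mean. Bcl6b, Sim2 and Prdm1 drop from 3943, 2189 and 283.7 to 77.4, 74.8 and 31.5, Bach2 alone is higher in KO, and Sim1 is at 0 in 4 of the 5 libraries.

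Levels of different genes were compared per transcript length, as RPKM, with the lengths the authors used. In WT the order was Bcl6b at 31.2 ± 0.389, Bach1 at 18.4 ± 0.102, Sim2 at 16.1 ± 0.425 and Bcl6 at 10.3 ± 0.159 RPKM (SD, n = 3). These 4 neighbours in the order did not overlap. Prdm1 at 1.49 ± 0.0654 and Bach2 at 1.48 ± 0.139 RPKM (SD, n = 3) overlapped, and their order is not resolved. In KO the order was Bach1 at 11.9 ± 0.665, Bcl6 at 5.60 ± 0.160 and Bach2 at 3.23 ± 0.231 RPKM (SD, n = 2), with no overlap between neighbours. Bcl6b at 0.610 ± 0.0629 and Sim2 at 0.548 ± 0.177 RPKM (SD, n = 2) overlapped. Prdm1 came last of the tested members at 0.165 ± 0.0455 RPKM (SD, n = 2).

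Set against all genes tested, whose median RPKM was 9.61 in WT and 9.37 in KO, Bcl6b went from percentile 78.95 of the RPKM values to percentile 14.7. Sim2 went from percentile 62.8 to 14.0 and Prdm1 from 21.9 to 5.32. Bach1 moved from 66.0 to 55.8, Bcl6 from 51.6 to 39.5 and Bach2 from 21.9 up to 30.6. These percentiles of level describe where each gene stood in its own group.

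**Figure D2:**
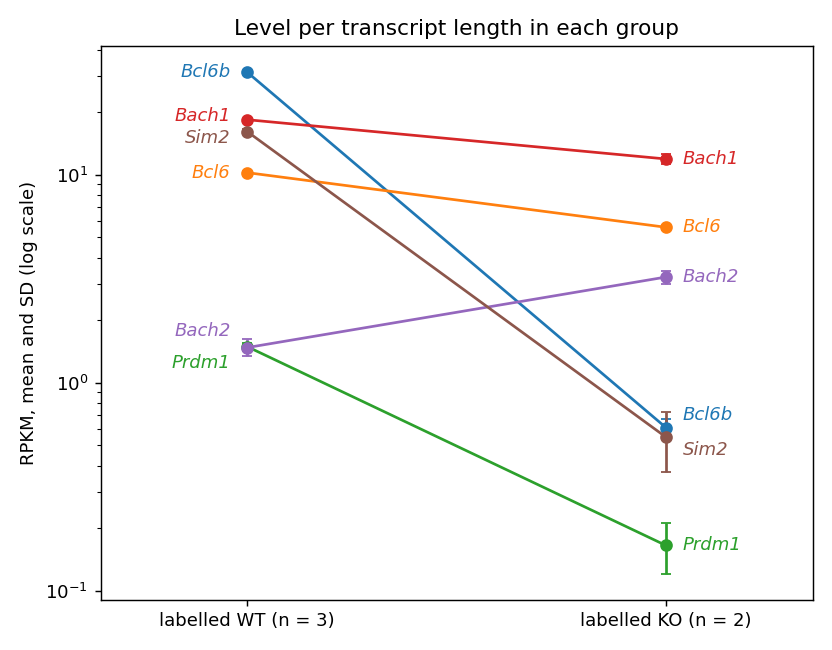
Mean RPKM of the 6 tested members in WT-labelled (n = 3) and KO-labelled libraries (n = 2), on a log axis, with error bars of 1 SD. Bcl6b and Sim2 start above Bcl6 and Bach2 and end below both, at 0.610 and 0.548 RPKM, while Bach2 climbs from 1.48 to 3.23 RPKM.

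The size of these differences was unusual for Bcl6b, Sim2 and Prdm1, which is how they were picked, and smaller for their relatives. Over all genes tested the median size of a log2 fold change was 0.298, 13.3% of genes had a size of 1 or more, and 133 genes (1.02%) were at -3 or lower. Of the 4 relatives, Bcl6 and Bach1 were called lower, Bach2 was called higher and Sim1 was not tested. A call was the commoner outcome across the table (65.3% of genes), so these 3 calls are near the background. Poly-T selected RNA of a bulk culture was measured, in which fewer cells of a type and less RNA per cell cannot be told apart.

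**Figure D3:**
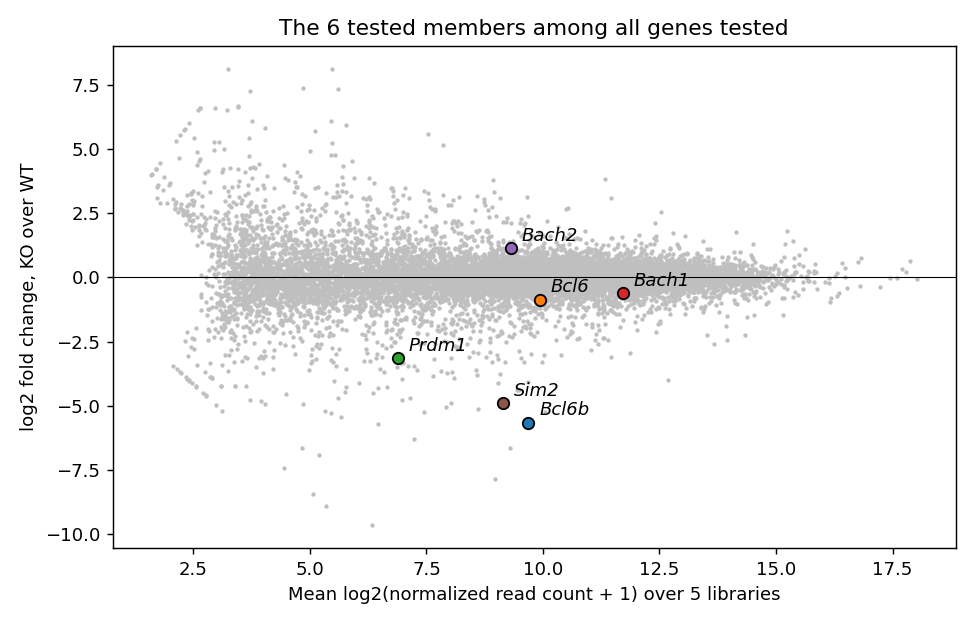
log2 fold change of KO over WT against the mean log2(normalized read count + 1) over the 5 libraries, with each of the 13062 genes tested in grey and the 6 tested members in colour. Bcl6b (-5.65) and Sim2 (-4.89) sit below nearly all genes of like level, Prdm1 (-3.15) lies at a lower level, and Bcl6 (-0.87), Bach1 (-0.62) and Bach2 (1.13) lie closer to 0.

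Promoter windows of the members are shown because Prdm1, Bcl6 and Bach2 are reported regulators of one another in B cells and differed here in different directions. Of the 7 genes, 5 (Prdm1, Bcl6, Bach1, Bach2 and Sim1) matched the RefSeq promoter table of GRCm38.p6, which spans 250 bases before to 50 after an annotated start. The 250 bases before the start are printed 5′ to 3′ on the gene's own strand, with motif matches in capitals. The windows lie on chr10:44458749-44458998 (minus strand) for Prdm1, chr4:32417185-32417434 (plus strand) for Bach2, and chr16:23988853-23989102 and chr16:23981284-23981533 (both minus strand) for 2 starts of Bcl6. The starts of Prdm1 and Bach2 in the table are internal to the RefSeq genes, whose spans begin farther upstream at 44528558 and 32238413.
Prdm1: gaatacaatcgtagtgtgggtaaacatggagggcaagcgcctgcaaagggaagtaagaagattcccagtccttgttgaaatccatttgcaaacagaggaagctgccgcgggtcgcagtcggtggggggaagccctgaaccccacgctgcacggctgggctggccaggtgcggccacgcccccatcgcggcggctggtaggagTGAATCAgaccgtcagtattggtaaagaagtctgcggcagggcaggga
Bach2: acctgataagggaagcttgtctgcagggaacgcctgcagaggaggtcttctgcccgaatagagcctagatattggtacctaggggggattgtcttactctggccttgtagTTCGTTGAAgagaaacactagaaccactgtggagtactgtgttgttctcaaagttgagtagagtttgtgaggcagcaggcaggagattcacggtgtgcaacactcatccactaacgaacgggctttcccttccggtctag
Bcl6, upstream start: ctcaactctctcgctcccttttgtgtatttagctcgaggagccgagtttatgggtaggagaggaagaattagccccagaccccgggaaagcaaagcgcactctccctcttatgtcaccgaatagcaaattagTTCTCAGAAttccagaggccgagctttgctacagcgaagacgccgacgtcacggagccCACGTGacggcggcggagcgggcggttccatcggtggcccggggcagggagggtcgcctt
Bcl6, downstream start: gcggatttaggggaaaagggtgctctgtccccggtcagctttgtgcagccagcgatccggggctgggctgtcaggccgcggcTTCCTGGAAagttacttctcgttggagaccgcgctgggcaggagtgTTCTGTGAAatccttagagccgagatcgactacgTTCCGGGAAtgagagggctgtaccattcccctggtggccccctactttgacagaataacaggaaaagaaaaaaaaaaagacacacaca

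Both strands of the 300 bases were searched for 4 short cores: TTCNNNGAA, which BCL6 sites share with STAT sites, TGANTCA, which BACH and small MAF sites share with AP-1, GAAAGNG, which BLIMP1 sites share with interferon regulatory factor sites, and ACGTG, the core bound by SIM with ARNT. TTCNNNGAA was found 3 times at the downstream Bcl6 start, as TTCCTGGAA, TTCTGTGAA and TTCCGGGAA beginning at 168, 122 and 88 bases before the start, and 1 time at the upstream one. The Bach2 window held it 1 time, as TTCGTTGAA. Of 32851 windows in the table, 8.30% held this core at least 1 time. The Prdm1 window held TGANTCA 1 time, as TGAATCA beginning 48 bases before the start, a core found in 7.81% of windows. ACGTG lay in the upstream Bcl6 window as the palindrome CACGTG, which matches on both strands, and in 19.6% of all windows. No window of a member held GAAAGNG (21.1% of all windows), and the Bach1 and Sim1 windows held none of the 4 cores.

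CG dinucleotides, the sites of DNA methylation in mammals, numbered 31 in the 300 bases of the upstream Bcl6 start and of Bach1, 20 at Prdm1, 14 at the downstream Bcl6 start, 13 at Sim1 and 7 at Bach2. The median over all windows was 7. A match of letters describes the sequence alone, and binding and methylation were not measured.

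Neighbouring genes were compared by the distance between the lowest coordinates of the genes. For a gene on the minus strand, such as Bcl6b, that coordinate is the end of the transcript. With 3 tested genes taken on each side of Bcl6b, 5 of the 6 were also lower in KO. Slc16a13, a monocarboxylate transporter gene, has its lowest coordinate 7.34 kb from that of Bcl6b. It had 1766, 1603 and 1724 normalized read counts across WT replicates 1 to 3, against 389.8 and 388.1 across KO replicates 1 and 2. Its groups did not overlap (limma, log2 fold change -2.12, adjusted p = 3.0e-17). Slc16a11, its neighbour of the same transporter family, averaged 353.3 ± 14.9 in WT (SD, n = 3) and 60.4 ± 13.7 in KO (SD, n = 2), a log2 fold change of -2.55. Asgr1, a subunit gene of the asialoglycoprotein receptor of hepatocytes, averaged 81.2 ± 9.18 in WT (SD, n = 3) and 7.74 ± 3.08 in KO (SD, n = 2), a log2 fold change of -3.27. On the other side Rnasek fell by 0.83 on the log2 scale, while 0610010K14Rik, between it and Bcl6b, was at 0.10 and not called (limma, adjusted p = 0.245). Alox12, at 16.8, 8.90 and 17.6 across WT replicates 1 to 3 and 8.81 and 1.11 across KO replicates 1 and 2, passed with all libraries (limma, adjusted p = 0.0170) but not without WT replicate 1 (0.0728) or KO replicate 2 (0.328), with no filter (0.0611), on RPKM (0.0564) or in the authors' deposited table (0.128).

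Within 200 kb of the lowest Bcl6b coordinate, 5 of 7 tested genes were lower (limma), against 32.6% among all genes tested. That distance was chosen after the values were seen. Pelp1 was higher, at 0.15. The median log2 fold change was -1.71, which is the value of Alox12, a low gene. Alox12 was at -0.69 on RPKM and -0.64 in the authors' deposited table, and was called in neither. Within 5 Mb the run of lower genes was gone: of 133 tested genes, 34 were lower and 44 higher, with a median of -0.00024. A cause of the local difference was not tested.

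With 3 tested genes taken on each side of Prdm1, which reach as far as 6155 kb on one side, 2 of the 6 were called, Qrsl1 and Prep, and both were higher in KO, at log2 fold changes of 0.27 and 0.25. Atg5, the nearest of them and an autophagy gene, was at -0.053 (limma, adjusted p = 0.456). Of the 3 on each side of Sim2, those called were higher in KO. Hlcs, the biotin ligase gene, averaged 181.8 ± 25.3 in WT (SD, n = 3) and 306.1 ± 40.5 in KO (SD, n = 2). Its lowest coordinate is 44.2 kb from that of Sim2, but at 94129306 it lies just past the Sim2 end, 94127032. Morc3 and Pigp were at log2 fold changes of 0.17 and 0.46. The Morc3 call was lost without WT replicate 1 or KO replicate 2 (limma, adjusted p = 0.0572 and 0.117) and the Pigp call without KO replicate 1 (0.0688). Within 5 Mb, 11 of 33 tested genes were higher and 6 lower around Prdm1 (limma, median log2 fold change 0.023). Around Sim2, 21 of 57 were higher and 14 lower (median 0.056). Over all genes tested, 32.6% were higher and 32.6% lower, so the shares called higher around both genes were near the background.

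The relatives had mixed surroundings. Rtp4, an interferon-inducible gene and one of the 3 taken on that side of Bcl6, fell by 2.51 on the log2 scale, whereas Lpp, on its other side, rose by 0.53. Next to Bach2, Epha7, an ephrin receptor gene, went from 0.884, 1.98 and 0 normalized read counts across WT replicates 1 to 3 to 56.2 and 81.2 across KO replicates 1 and 2, at 3425 kb from the Bach2 start. Map3k7, between Epha7 and Bach2, and Casp8ap2, on the other side of Bach2, were not called, at 0.0092 and -0.054 (limma, adjusted p = 0.843 and 0.336).

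**Figure D4:**
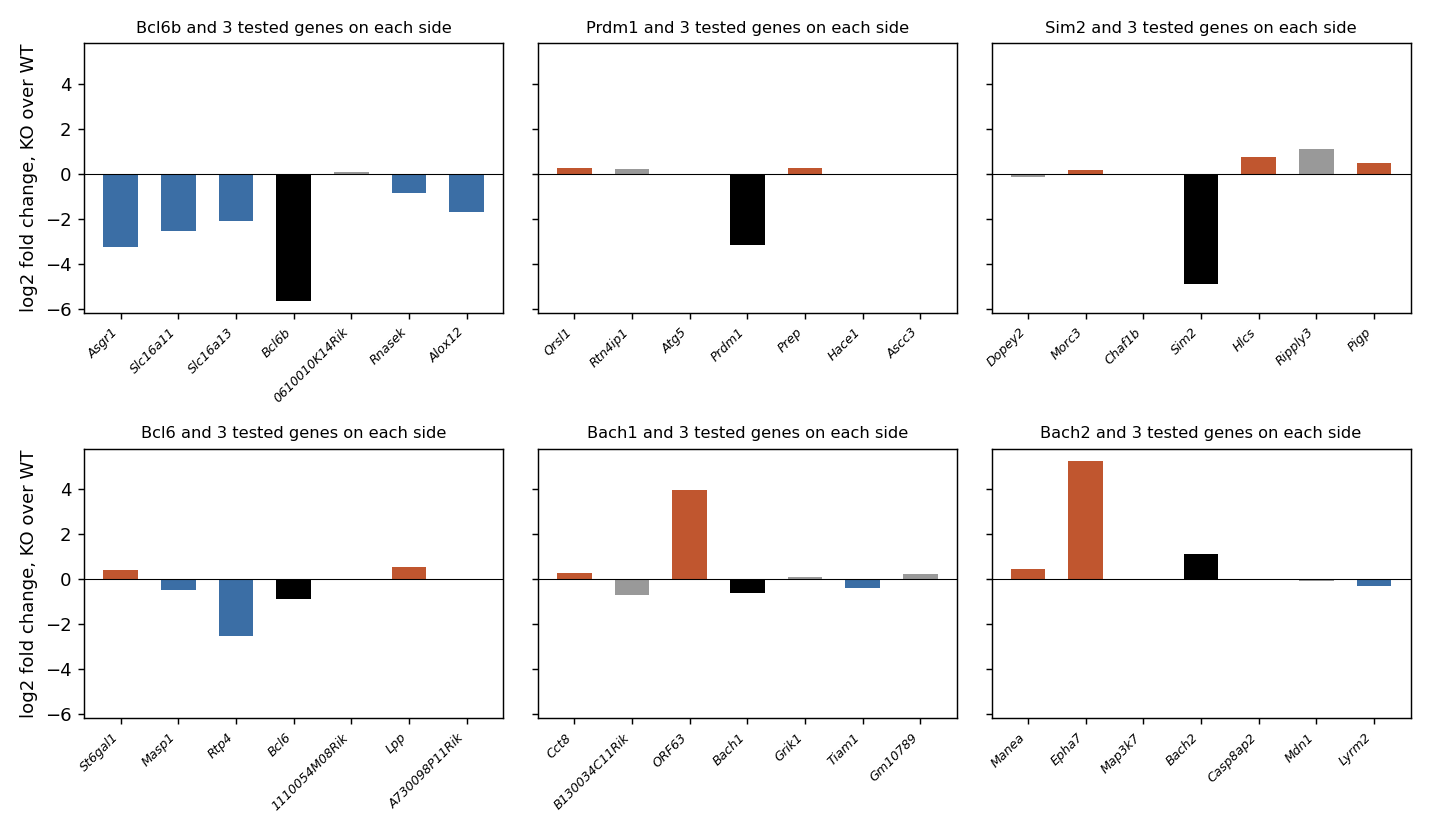
log2 fold change of KO over WT for each tested member (black) and its 3 nearest tested genes on each side, in order along the chromosome and not to scale in distance, with genes called higher in orange, called lower in blue and not called in grey. Bars fall with Bcl6b on both sides, apart from 0610010K14Rik, while the neighbours of Prdm1 and Sim2 lie between -0.15 and 1.13.

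The genes whose profile over the 5 libraries was nearest to that of a member, by Euclidean distance on log2(normalized read count + 1), were Ifit1, Sfrp1 and Sgsm1 for Prdm1, at distances of 0.162, 0.225 and 0.416. Ifit1, an interferon-induced antiviral gene, had 274.9, 245.3 and 305.3 normalized read counts across WT replicates 1 to 3, against 37.4 and 25.6 across KO replicates 1 and 2. Sfrp1, a secreted WNT inhibitor gene, had 254.6, 252.3 and 307.1 in WT and 36.3 and 27.8 in KO. Nearest to Bcl6b were Igfbp3, Avpr1a and Eda2r, at 0.950, 1.41 and 1.46, and nearest to Sim2 were Bmp6, Lgals3bp and Eda2r, at 0.893, 1.05 and 1.14. Bmp6, a bone morphogenetic protein gene, averaged 1635 ± 62.2 in WT (SD, n = 3) and 95.3 ± 28.8 in KO (SD, n = 2). Each distance covers 5 libraries in 2 groups, and the difference between the groups that chose the members enters it.

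The other genes of these families did not share one direction. Of 43 further BTB zinc finger genes, 41 were tested, 8 were higher and 19 lower in KO (limma), with a median log2 fold change of -0.16, against 32.6% in each direction and a median of -0.0023 over all genes tested. Only 4 were higher without KO replicate 2. Zbtb7a, a repressor of wide expression, averaged 5410 ± 126 in WT (SD, n = 3) and 3350 ± 115 in KO (SD, n = 2). Zbtb44, Zbtb4 and Zbtb39 fell by 0.64, 0.76 and 0.51 on the log2 scale.

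Among 14 other PRDM genes 11 were tested, with a median log2 fold change of -0.066. Of these, 4 were higher and 4 lower (limma), against 32.6% in each direction over all genes tested. Prdm16, which directs brown fat and stem cell programmes, was at 29.2, 42.5 and 37.0 normalized read counts across WT replicates 1 to 3 and at 0 in both KO libraries. With 3 reads per KO library as the floor, it was at least 10.9-fold lower in KO. Mecom, a haematopoietic PRDM gene also called Prdm3, averaged 3790 ± 105 in WT (SD, n = 3) and 2101 ± 87.3 in KO (SD, n = 2), and Prdm2 fell by 0.26 on the log2 scale. Prdm9, the meiotic recombination factor, was low and averaged 26.4 ± 8.30 in WT (SD, n = 3) and 94.1 ± 14.7 in KO (SD, n = 2).

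The bHLH-PAS family, to which the SIM genes belong, was split in the same way. Of 12 tested, 4 were higher and 4 lower (limma, median -0.0885), against 32.6% in each direction over all genes tested. Arnt, a general partner of the family, was at 3495, 3660 and 3518 normalized read counts across WT replicates 1 to 3, against 3276 and 3635 across KO replicates 1 and 2. These groups overlapped (limma, log2 fold change -0.044, adjusted p = 0.429, and 0.0437 without KO replicate 2). Arnt2, the partner used in the nervous system, averaged 531.7 ± 21.0 in WT (SD, n = 3) and 1081 ± 69.3 in KO (SD, n = 2), a log2 fold change of 1.02 (limma, adjusted p = 7.0e-11). Ahr, the dioxin receptor, was at 7097, 7616 and 7103 in WT and 1804 and 1696 in KO, a log2 fold change of -2.05 (limma, adjusted p = 9.9e-20). The clock-related factor Npas2 averaged 57.5 ± 2.38 in WT (SD, n = 3) and 6.63 ± 3.08 in KO (SD, n = 2), and its relative Arntl rose by 0.32.

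Of 7 small MAF and CNC genes tested, partners and competitors of the BACH proteins, 4 were lower and 0 higher (limma, median -0.20), against 65.3% called in either direction and 32.6% lower over all genes tested. Mafg was at 3283, 3160 and 3388 across WT replicates 1 to 3 and 1912 and 1947 across KO replicates 1 and 2, a log2 fold change of -0.76 (limma, adjusted p = 3.5e-12), and Maff fell by 0.34. Mafk, at 1967 ± 127 (SD, n = 3) and 1769 ± 146 (SD, n = 2), had overlapping groups. Its call (limma, log2 fold change -0.15, adjusted p = 0.0293) was lost without WT replicate 2, WT replicate 3 or KO replicate 1 (0.0616, 0.169 and 0.426), with no filter (0.0952), on RPKM (0.0675) and in the authors' deposited table (0.0693). Nfe2l2, for NRF2, which competes with BACH1 for the same sites and activates from them, averaged 5703 ± 99.1 in WT (SD, n = 3) and 2774 ± 41.0 in KO (SD, n = 2).

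Corepressor genes were called in both directions. Of 22 tested, 8 were higher and 9 lower (limma, median 0.059), against 32.6% in each direction over all genes tested. The BCL6 corepressor gene Bcor was at 2839 ± 78.4 (SD, n = 3) and 3029 ± 241 (SD, n = 2) and was not called (limma, adjusted p = 0.110, and 0.0115 without KO replicate 1). Ncor1, a nuclear receptor corepressor gene, was at a log2 fold change of -0.13, and Hdac3, the deacetylase of its complex, at 0.15. The Ncor1 call was lost without KO replicate 1 (limma, adjusted p = 0.0942) and in edgeR (0.0505), and the Hdac3 call without KO replicate 1 (0.0592). Tle4, a Groucho-type corepressor gene, averaged 576.1 ± 15.1 in WT (SD, n = 3) and 1385 ± 81.5 in KO (SD, n = 2). Hdac5 and Sin3a fell by 0.73 and 0.55 on the log2 scale, and Ctbp2 rose by 0.51.

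Genes reported to be repressed by the members moved in both directions, as did all genes tested (limma, 32.6% higher and 32.6% lower). The BACH1 list gave 5 higher and 8 lower of 14 tested (limma, median -0.39), and 3 higher without KO replicate 1. Hmox1, haem oxygenase and the best known BACH1 target, was at 1927, 1858 and 1777 normalized read counts across WT replicates 1 to 3, against 2248 and 2013 across KO replicates 1 and 2. It was called higher, by 0.20 on the log2 scale (limma, adjusted p = 0.0033), but not without KO replicate 1 (0.106). Nqo1, a quinone reductase gene, averaged 3908 ± 132 in WT (SD, n = 3) and 1340 ± 61.7 in KO (SD, n = 2). The haem transporter gene Slc48a1, the thioredoxin reductase gene Txnrd1 and the autophagy receptor gene Sqstm1 fell by 0.85, 0.59 and 0.41. Many genes of this list are also known targets of NRF2.

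The BCL6 list without Prdm1 gave 7 higher and 6 lower of 13 tested (limma, median 0.12), and 4 higher without KO replicate 2. Its largest difference was that of Ccnd2, the cyclin D2 gene, at 326.1, 344.3 and 342.3 normalized read counts across WT replicates 1 to 3, against 2799 and 3131 across KO replicates 1 and 2, a log2 fold change of 3.13. Cdkn1a, for the cell cycle inhibitor p21, went the other way, at -0.92. Of the BLIMP1 list without Bcl6, 5 of 10 genes were tested, with 2 higher and 2 lower (limma, median -0.31). For comparison with both lists, 65.3% of all genes tested were called, 32.6% in each direction. Myc, a classical BLIMP1 target, averaged 3080 ± 93.0 in WT (SD, n = 3) and 3829 ± 115 in KO (SD, n = 2), while Id3 and Tcf7 fell by 0.31 and 0.55. The other 5, among them the B cell gene Pax5, stayed under 10 normalized read counts in every library. Of 10 SIM-linked genes, 2 could be tested. Snai2, an epithelial-mesenchymal transition factor repressed by SIM2, fell by 0.35 (limma, adjusted p = 1.5e-04), and Oxt was at 3.96 normalized read counts or less while Avp, Crh and Trh were at 0, hypothalamic hormone genes linked to SIM1.

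**Figure D5:**
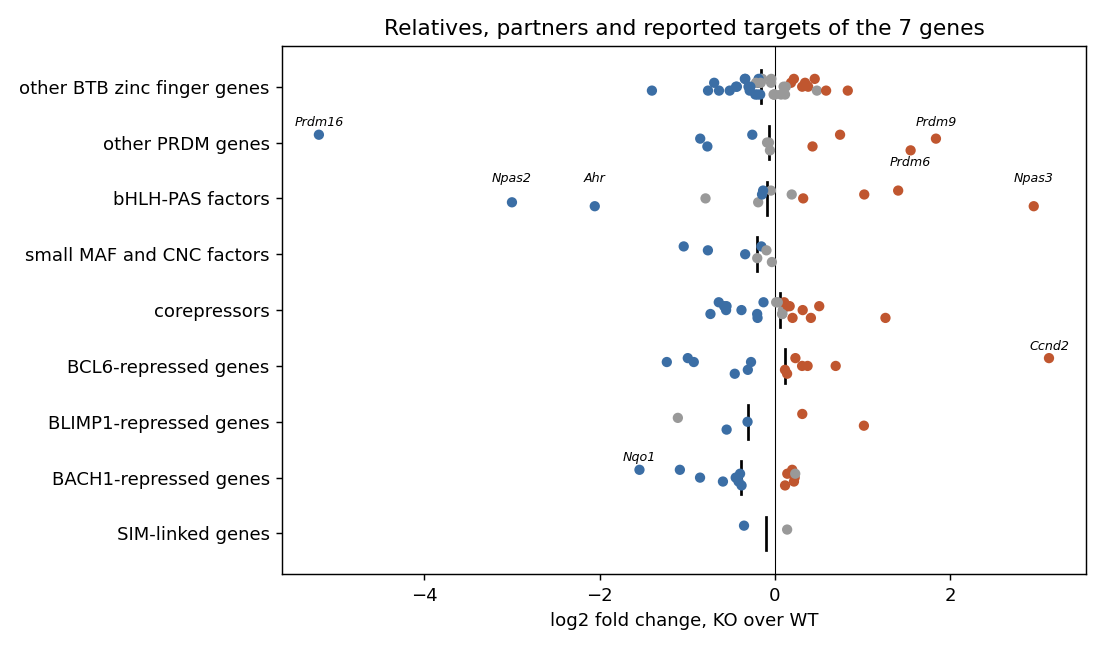
log2 fold change of KO over WT for each tested gene of 9 lists (members left out), with genes called higher in orange, called lower in blue and not called in grey, and a black bar at each list's median. Every list but that of small MAF and CNC factors and the SIM-linked genes holds called genes on both sides of 0, and Prdm16, Npas2, Ahr, Npas3 and Ccnd2 lie farthest out, where the place of Prdm16, at 0 in KO, depends on the pseudocount.

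Fibroblast markers were the highest marker list in every library, at a summed RPKM of 5930 to 6120 in WT and 5080 to 5180 in KO. Of 13 of them 12 were tested, and Lum was at 1.11 normalized read counts or less. Of the 12, 2 were higher and 7 lower in KO (limma), against 32.6% in each direction over all genes tested. Pdgfra averaged 20013 ± 229 in WT (SD, n = 3) and 1255 ± 98.6 in KO (SD, n = 2), while Col1a2 rose by 0.58 on the log2 scale. Of 13 B, plasma and other blood cell markers 9 stayed under 10 normalized read counts in every library, and Ms4a1, Cd3e and Cd3g were at 0. The summed RPKM of that list was 5.78 to 6.32 in WT and 5.14 to 5.61 in KO. Endothelial cells are a known site of Bcl6b expression; their list summed to 13.9 to 15.7 RPKM in WT and 18.6 to 19.0 in KO, with Tie1 at 0 in all libraries and Pecam1 at 3.34 normalized read counts or less. Of 9 endothelial markers 5 were tested, with 2 higher and 1 lower (limma). The VEGF receptor gene Flt1 averaged 1174 ± 27.8 in WT (SD, n = 3) and 3265 ± 145 in KO (SD, n = 2), and Egfl7 558.3 ± 52.5 and 264.4 ± 12.3. Kdr, another VEGF receptor gene, was at 0 to 2.97 normalized read counts in WT and at 40.7 and 35.6 in KO. Germ cell markers summed to 21.3 to 21.4 RPKM in WT and 16.7 to 17.4 in KO. Of these 10, 4 were at 0 throughout and 6 stayed under 10 normalized read counts in every library. Of 4 germ cell markers tested, 3 were lower and 0 higher (limma), and Nanos3 lost its call with no filter (adjusted p = 0.0556). For each marker list, the share over all genes tested was 32.6% in each direction. Epithelial markers summed to 0.516 to 0.636 in WT and 1.77 to 1.88 in KO. Muscle markers summed to 0.606 to 0.762 in WT and 2.36 to 2.41 in KO. Of 10 epithelial and 10 muscle markers, 8 and 9 stayed under 10 normalized read counts in every library. Neuronal markers summed to 83.3 to 84.2 in WT and 18.5 to 18.8 in KO. Of 4 neuronal markers tested, 2 were higher and 2 lower (limma, median -0.0044). Mtap2 rose by 0.80 and Tubb3 fell by 0.80 on the log2 scale, and Stmn2, which encodes a tubulin-binding protein, averaged 4438 ± 85.9 in WT (SD, n = 3) and 18.3 ± 0.908 in KO (SD, n = 2). The part of these lists in the values of the members was not tested.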

How the data were processed

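Per the labels' protocols, poly-T selected RNA of 5 samples went into Nextera XT libraries read on a NextSeq. Of the authors' own processing, STAR, DESeq2 and the build mm10 are named in the submitters' processing notes. For the counting program, annotation and strand, the entry is: not given in the sources used here. Per the file headers and the values, the authors deposited signal values per library (read counts divided by a size factor), RPKM values, and their own comparison with a log2 fold change, a Wald score and p-values with adjusted p-values. In each library 100% of the signal values were whole multiples of 1 step, within 0.1 reads, which gave back the reads; those of WT replicate 2, whose step is 0.989, were kept out of the count test. The 25 symbols turned into dates could not be named.

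Samples were grouped by title. Normalized values are no input for a count model, so limma 3.58.1 with a trended prior (R 4.3.3) took log2(value + 1) of 13062 genes that had 10 or more in at least 2 libraries, two-sided, with genotype as the factor, and Benjamini-Hochberg adjustment over all genes. The step was tested on simulated data. Fold changes on this scale understate those of low genes. Alternatives were pseudocounts of 0.5 and 5, no filter, a mean of 50 or more, TMM rescaling, RPKM (log2(RPKM + 0.1)), each library left out, a replicate block, edgeR 4.0.16 on the reads of 4 libraries, and the authors' comparison. The members and lists were chosen with earlier results of these data known. Genes were named by rule: the members, Sirt3, 14 partners and targets, up to 4 called genes of each list by adjusted p, the 3 nearest tested genes on each side of a member, and the 3 nearest profiles of Bcl6b, Prdm1 and Sim2. Of those, some neighbours are left out for length and a few other genes are not reported here. Npas3 and Prdm6, shown in a plot, Pelp1 and markers were named after their values were seen. Positions came from RefSeq genes of GRCm38.p6, the assembly of mm10, and exon overlaps from GENCODE M21. Depth sets a floor of 3 reads per library, and intervals cover counting error only.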

Additional observations from a re-analysis of the deposited data

How the results depend on the processing

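The 3 calls among the relatives (Bcl6, Bach1 and Bach2) and the direction of all 6 tested members held under each of the 14 alternatives. Of these, 5 only leave out 1 library, and edgeR was also run without WT replicate 2. The log2 fold change of Bcl6b moved beyond its replicate spread on RPKM values (-5.46) and in the authors' deposited table (-5.49). That of Prdm1 did so on RPKM values (-2.60). The added 0.1 RPKM is large beside the KO level of Prdm1 (0.165 RPKM) and not small beside that of Bcl6b (0.610 RPKM). In the authors' deposited table all 6 tested members had log2 fold changes of smaller size than in the main limma fit, and the reason was not tested. With 1 library left out, Prdm1 ranged from -3.42 to -2.89 and Sim2 from -5.23 to -4.55, both ends being fits with 1 KO library, which is then assumed to vary like the other group. The replicate block gave 3958 genes higher and 3947 lower, against 4259 and 4264 without it; it leaves WT replicate 3 without a partner, and the fit that only leaves that library out gave 4001 and 3947 with the same log2 fold changes for all 6 members. The deviations of same-numbered libraries correlated at -0.0098 and -0.0050. These values show no shared variation by number, but they cannot show whether the libraries were handled in pairs. The Mafk call was lost with the block (limma, adjusted p = 0.173) as without WT replicate 3 (0.169). Of 103 other genes considered for naming, 83 were called, 12 of these lost the call in at least 1 alternative, 6 uncalled genes gained one, and 0 reversed. Of 32 counts over the lists, 9 moved by more than 1.5 times in at least 1 alternative; with a mean of 50 or more, 2 rather than 4 PRDM genes were lower, and the authors' table called 5 rather than 8 BTB zinc finger genes higher. Sim1 and the low markers are limited by depth.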
